A study of Mus musculus with 6 samples.

Results

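The genes described here are 10 immediate-early response genes of mouse gastrocnemius (GAS) muscle, picked by symbol: the EGR factors *Egr1* and *Egr3*, the Krüppel-like factors *Klf4*, *Klf6* and *Klf10*, the IER genes *Ier2*, *Ier3* and *Ier5*, the mRNA decay factor *Zfp36* and the nuclear factor *Csrnp1*. All 10 were found among the 24532 genes of the deposited table, and all 10 were among the 13801 that passed the filter on low counts. RNA was sequenced from the GAS of 3 WT mice and 3 *Sirt6* KO mice, C57BL/6 males of 20 weeks, with 1 library per animal. Animals of both groups were homozygous for the floxed *Sirt6* allele, and the *Sirt6* KO animals carried *Myl1-Cre* in addition, whose promoter is active mainly in fast type II myofibers, so that other cells of the muscle keep the gene. The comparison asks which transcripts differ in muscle from animals with this deletion. Levels are normalized CPM, counts scaled to a common library size with TMM, and fold changes and adjusted p-values come from edgeR's quasi-likelihood test, adjusted by Benjamini-Hochberg over all genes tested.

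Total counts lay between 44845763 and 63016899 per library, WT 1 and WT 2 being the shallowest, and 1 count was worth 0.0165 to 0.0212 CPM. The deleted gene went against its label: *Sirt6* had 138, 105 and 165 counts in WT 1, 2 and 3 and 457, 451 and 368 counts in libraries 1, 2 and 3 labelled *Sirt6* KO (KO 1, 2 and 3), which was 2.78-fold more in normalized level (log2 fold change 1.48 ± 0.17 SE, adjusted p = 0.0113). The adjusted p was 0.0606 without KO 1 and 0.065 without KO 3. Counts over the whole gene cannot tell an intact transcript from a recombined one, so every direction below rests on the labels. All 6 libraries carried the muscle label's own markers. The summed level of 10 fast fiber markers was 167121 and 178351 CPM in WT 1 and 2. It was 262633 CPM in WT 3 and 253588 to 287654 CPM in the KO-labelled libraries, so that WT 3 lay beside the other group. Of the 10 markers, 8 were higher and 2 lower in the KO-labelled libraries. *Myh1* ran against the sum, at 8767 and 10153 CPM in WT 1 and 2. It was at 2408 CPM in WT 3 and 2961 to 4505 CPM in the other group. WT 3 stood apart from the other WT libraries in the markers of slow fibers, blood and vessels, whose values are given beside the genes they move with. It was also the lowest WT library in the summed markers of adipocytes (4.45 against 43.9 and 52.5 CPM) and Schwann cells (25.8 against 52.3 and 69.2). The same held for satellite cells (74.9 against 141 and 170) and fibroblasts (626 against 1126 and 890). The satellite cell sum was mostly *Sdc4* (71.6 CPM in WT 3, against 135 and 165). Of its other markers, *Myf5*, *Calcr* and *Chrdl2* were lowest of WT in WT 3. *Pax7* was highest there (0.541 against 0.421 and 0.488 CPM). Macrophage markers were lowest in WT 2 (38.6 CPM).

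Immediate-early genes are transcribed within minutes of a stimulus such as a growth factor, contraction, stretch or stress, from promoters that are already occupied, and need no new protein for their induction. Serum response factor (SRF) with its ERK-activated partners, and CREB, are the best known factors at such promoters. The mRNAs are mostly short-lived, because AU-rich elements in their 3′ UTRs recruit decay proteins. The gene products are themselves regulators: EGR and KLF proteins bind GC-rich DNA through zinc fingers, ZFP36 (tristetraprolin) binds the letters UAUUUAU in mRNA and recruits the CCR4-NOT deadenylase, and the IER and CSRNP proteins act in the nucleus on transcription and survival. In contracting muscle this class of genes is induced by activity.

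The promoters of the 4 genes that passed the test are shown here, since factors such as SRF and CREB are best known at such promoters. Sequence outside the windows was not searched, and a response through them was not tested. Each window runs from 250 bases before to 50 bases after a RefSeq transcription start on GRCm38.p6, 300 bases in all, written in the direction of the gene. Letters in capitals mark matches to the motifs searched on both strands: the SRF-binding CArG box, the CREB site TGACGTCA, its core TGACG, the EGR site GCGNGGGCG, the KLF/SP site GGGCGG and TATAAA. A match on the other strand appears as its reverse complement. *Zfp36* lies on the minus strand at chr7:28379179-28379478, *Klf6* on the plus strand at chr13:5861239-5861538, *Ier5* on the minus strand at chr1:155099587-155099886, and *Csrnp1* on the minus strand at chr9:119983730-119984029. *Csrnp1* has 4 windows, and the 1 with the KLF/SP sites is shown.
Zfp36: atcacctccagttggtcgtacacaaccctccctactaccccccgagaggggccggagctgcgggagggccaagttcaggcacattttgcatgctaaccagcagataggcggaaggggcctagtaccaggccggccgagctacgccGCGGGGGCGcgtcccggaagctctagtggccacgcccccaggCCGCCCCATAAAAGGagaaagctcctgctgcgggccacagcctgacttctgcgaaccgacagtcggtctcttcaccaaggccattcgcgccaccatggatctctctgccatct
Klf6: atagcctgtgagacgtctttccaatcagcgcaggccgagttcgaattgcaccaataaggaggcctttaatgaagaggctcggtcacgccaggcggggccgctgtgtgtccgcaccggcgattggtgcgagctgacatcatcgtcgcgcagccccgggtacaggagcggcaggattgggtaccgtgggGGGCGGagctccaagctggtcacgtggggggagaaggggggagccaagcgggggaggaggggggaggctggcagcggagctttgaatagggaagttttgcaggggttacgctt
Ier5: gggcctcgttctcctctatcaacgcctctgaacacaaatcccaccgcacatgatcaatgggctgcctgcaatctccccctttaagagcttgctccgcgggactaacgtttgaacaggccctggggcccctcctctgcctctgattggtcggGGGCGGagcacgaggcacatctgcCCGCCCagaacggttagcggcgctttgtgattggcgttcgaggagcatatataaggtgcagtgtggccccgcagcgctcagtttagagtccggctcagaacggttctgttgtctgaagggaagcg
Csrnp1: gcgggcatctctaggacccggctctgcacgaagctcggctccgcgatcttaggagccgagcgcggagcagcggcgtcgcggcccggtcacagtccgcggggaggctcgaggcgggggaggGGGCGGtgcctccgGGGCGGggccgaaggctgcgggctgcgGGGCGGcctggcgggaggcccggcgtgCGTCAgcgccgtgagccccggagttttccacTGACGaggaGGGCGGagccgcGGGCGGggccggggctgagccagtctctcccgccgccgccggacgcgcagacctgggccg

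The search covered 6 of the 10 genes (*Ier3*, *Ier5*, *Klf4*, *Klf6*, *Zfp36* and *Csrnp1*). *Egr1* was left out of it beforehand, and no window was matched to *Egr3*, *Ier2* or *Klf10*. The 6 genes have 9 windows, 4 of them of *Csrnp1*. GGGCGG was found in 6 of the 9, 1 for each gene, against 35.7% of 32851 windows of the same length. Among the 6 genes searched, only *Zfp36* held a CArG box, a motif present in 1.63% of all windows. It lay at -58 from the start site, next to a GGGCGG with which it shares a base. The EGR site was found in 2 of the 9 windows, at -105 in *Zfp36* and at -211 and -194 in *Klf4*, where it overlaps GGGCGG, against 5.55% of windows. TGACG was found in 5 of the 9, that of *Klf4* and the 4 of *Csrnp1*, against 20.8% of windows. The full TGACGTCA (1.79% of windows) and TATAAA (13.6%) were found in 0 of the 9. A match is a string of letters and not an occupied site. The 4 windows shown have a GC content of 59% to 78.3%, against a median of 52.7% over all windows. The highest value is that of the *Csrnp1* window, which was picked for its GC-rich GGGCGG sites. The other windows of *Csrnp1* have 57.7% to 68.7%, and that of *Ier3* has 54%.

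mRNA decay elements were read from the 3′ UTR of the longest coding transcript of each gene (GENCODE M21, GRCm38). ATTTA occurred in 9 of the 10 genes, all but *Ier2*, against 69.9% of 13166 genes tested that have a coding transcript. The ZFP36-binding letters TATTTAT occurred in 5 of the 10, against 30.1%. For these 5, the 30 bases of 3′ UTR richest in them are shown with TATTTAT in capitals, since *Ier3* and *Zfp36* hold them in pairs. They lie at chr17:35822484-35822513 (plus strand, *Ier3*), chr7:28376958-28376987 (minus strand, *Zfp36*), chr13:5868489-5868518 (plus strand, *Klf6*), chr15:38294920-38294949 (minus strand, *Klf10*) and chr9:119972067-119972096 (minus strand, *Csrnp1*).
Ier3: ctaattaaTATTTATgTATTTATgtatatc
Zfp36: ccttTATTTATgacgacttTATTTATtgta
Klf6: agctacgtctctTATTTATgccttgaggac
Klf10: acagtgtcttttTATTTATaggagtttttc
Csrnp1: acactctgaattTATTTATttttttatgtt

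*Ier3* and *Zfp36*, the latter coding for the protein that reads this element, each held 2 copies within 30 bases, as did 2.97% of genes tested. *Klf6*, *Klf10* and *Csrnp1* held 1 copy in such a stretch. The genes are also short: 9 of 10 have at most 4 exons, against 21.5% of genes tested, *Ier2* and *Ier5* consist of 1 exon (2.52%), and their median length is 4523.5 bases against 23170.

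Of the 10 genes, 8 were lower and 2 higher in the KO-labelled libraries, with a median log2 fold change of -1.53, against -0.02 over all genes tested, of which 51.6% were lower. *Klf6*, *Zfp36*, *Csrnp1* and *Ier5* fell at an adjusted p under 0.05, where 8.39% of all genes tested fell. None of the 10 rose by edgeR's quasi-likelihood test, where 7.85% of all genes tested did. DESeq2 and limma also called 0 of them higher, and at an unadjusted p under 0.05 the count was 7 lower and 1 higher, against 18.1% and 17.2% of all genes (35.3% in either direction). The groups did not overlap for 5 genes, all lower, against 19.6% of all genes lower and 20.3% higher without overlap. Leaving out 1 library at a time gave between 0 (without KO 1) and 5 (without WT 3) of the 10 called lower, with 2 without WT 1, 2 without WT 2, 3 without KO 2 and 1 without KO 3. In the fits without KO 1 and without KO 3, only 2 and 5 of all genes tested were called lower and 6 and 8 higher.

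**Figure D1:**
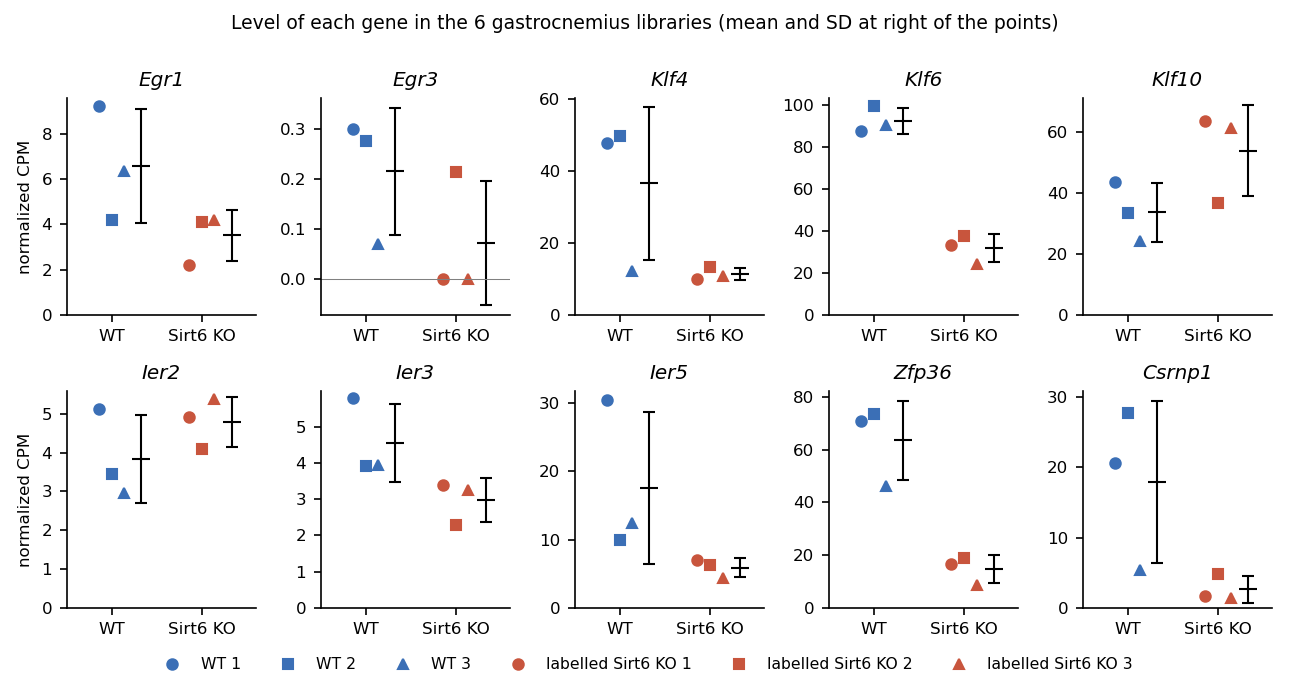
Normalized CPM (vertical axis, linear, a scale for each gene) of the 10 genes in the 3 WT libraries and the 3 KO-labelled libraries. Each symbol is 1 library, and the bar beside the points is the mean with the SD of the 3 libraries. *Klf6* and *Zfp36* separate the groups widely, while *Klf4* of WT 3 sits at 12.1 CPM among the KO-labelled libraries.

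Among the KLF factors, *Klf6*, a zinc finger activator that is induced by injury and present in most tissues, showed the tightest difference. It was at 87.6, 99.3 and 90.3 CPM in WT 1, 2 and 3 and at 33.1, 37.4 and 24.3 CPM in KO 1, 2 and 3. The lowest WT library was above the highest KO-labelled library by more than the range of either group, and WT 3, low in many other genes here, was not low. *Klf6* fell 2.92-fold (log2 fold change -1.55 ± 0.17 SE, adjusted p = 0.011), from 92.4 ± 6.13 to 31.6 ± 6.7 CPM (SD, n = 3 each). It passed in 13 of 14 alternative analyses, the exception being the fit without KO 1 (adjusted p = 0.0589). The gene spans chr13:5861489-5870393 in GRCm38.p6.

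*Klf4*, which in vessels is an endothelial and smooth muscle regulator and in stem cells a pluripotency factor, was at 47.8, 49.7 and 12.1 CPM in WT and at 9.83, 13.3 and 10.9 CPM in the KO-labelled libraries. WT 1 and WT 2 stood high and WT 3 lay inside the range of the other group. In bulk muscle, fewer cells of a type and less RNA per cell cannot be told apart. The log2 fold change of -1.69 ± 0.48 (SE) missed the threshold (adjusted p = 0.0515). It passed in 3 of 14 alternatives: DESeq2 (adjusted p = 0.00104), the filter of at least 10 counts in every library (0.0479) and the fit without WT 3 (0.00384). In the other direction *Klf10*, an early TGF-β response gene that represses transcription, was at 43.5, 33.6 and 24.2 CPM in WT and 63.7, 36.6 and 61.6 CPM in the KO-labelled libraries. KO 2 lay between WT 1 and WT 2, so the groups overlapped, and the log2 fold change of 0.68 ± 0.27 (SE) did not pass (adjusted p = 0.123, and between 0.0584 and 0.303 over 14 alternatives, all of them positive).

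*Zfp36* was the most abundant of the 10 per length in WT. It was at 70.7, 73.7 and 46.3 CPM in WT 1, 2 and 3 and at 16.7, 18.8 and 8.68 CPM in KO 1, 2 and 3. The groups lay far apart, although WT 3 was the lowest WT library. *Zfp36* fell 4.32-fold (log2 fold change -2.11 ± 0.31 SE, adjusted p = 0.0132) and passed in 12 of 14 alternatives, the exceptions being the fits without KO 1 (0.0608) and without KO 3 (0.065). The gene spans chr7:28376784-28379228, where 1274 bases overlap the antisense gene *Gm44710*. The labels name a library kit that keeps the strand and the study's methods one that does not, and whether counting used strand is not given in the sources used here, so reads of the overlap may belong to either gene.

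*Csrnp1*, a cysteine- and serine-rich nuclear factor known as a response gene of AXIN1 and TGF-β, had the largest fold change of the 10. It was at 20.6, 27.7 and 5.34 CPM in WT and at 1.69, 4.87 and 1.38 CPM in the KO-labelled libraries. WT 3 and KO 2 almost met, at 306 and 295 counts, and the remaining libraries were far apart. *Csrnp1* fell 6.73-fold (log2 fold change -2.75 ± 0.69 SE, adjusted p = 0.0384). With 1 library left out, its log2 fold change lay between -3.53 (without KO 2) and -2.29 (without WT 2). It passed in 10 of 14 alternatives and failed when WT 1 (0.107), WT 2 (0.107), KO 1 (0.129) or KO 3 (0.13) was left out. Its span, chr9:119971163-119984742, overlaps *Cx3cr1* on the same strand, a gene with at most 6 counts in any library, and over 1513 bases the antisense gene *1700019L13Rik*, with the same doubt about strand as for *Zfp36*.

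The IER genes split. *Ier5*, whose protein promotes the activity of the heat shock factor HSF1, was at 30.4, 9.91 and 12.4 CPM in WT and at 7.01, 6.32 and 4.36 CPM in the KO-labelled libraries. The groups did not overlap, but WT 1 was far above the other WT libraries. *Ier5* fell 2.98-fold (log2 fold change -1.58 ± 0.43 SE, adjusted p = 0.0463), the weakest of the 4 calls. It passed in 5 of 14 alternatives, of the fits with 1 library left out only in that without WT 3, and its log2 fold change was -0.91 without WT 1 (adjusted p = 0.0847). The other failures with a library left out were WT 2 (0.0583), KO 1 (0.114), KO 2 (0.101) and KO 3 (0.153).

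*Ier3*, an early gene that modulates apoptosis and NF-κB signalling, was at 5.79, 3.9 and 3.94 CPM in WT and 3.38, 2.28 and 3.25 CPM in the KO-labelled libraries. There was no overlap, but the gap between WT 2 and KO 1 was small, and the log2 fold change of -0.61 ± 0.25 (SE) did not pass (adjusted p = 0.123). *Ier2*, a nuclear regulator and a standard early marker of stimulation, was at 5.11, 3.46 and 2.95 CPM in WT and 4.9, 4.09 and 5.37 CPM in the KO-labelled libraries. The groups overlapped and the log2 fold change was 0.32 ± 0.24 (SE, adjusted p = 0.38). Neither gene passed in any of 14 alternatives.

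*Egr1*, the EGR factor that ERK and SRF induce in most cells, was at 9.22, 4.2 and 6.35 CPM in WT and at 2.2, 4.11 and 4.21 CPM in the KO-labelled libraries. WT 2 and KO 3 were level with each other, and WT 1 and KO 1 formed the extremes. The log2 fold change of -0.91 ± 0.35 (SE) did not pass (adjusted p = 0.114, and 0.0514 to 0.32 over 14 alternatives). *Egr3*, which muscle spindles need for their development, was near the limit of detection, with 15, 13 and 4 counts in WT and 0, 13 and 0 counts in the KO-labelled libraries. A count of 0 there allows up to 3 counts, 0.0513 CPM in KO 1 and 0.0545 CPM in KO 3, and covers counting error only. Its log2 fold change of -1.51 ± 1.24 (SE, adjusted p = 0.414) rests on these few reads and on KO 2, the only library of its group with a count. Without KO 2 the adjusted p was 0.0746, and no fold is given against 2 libraries at 0.

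**Figure D2:**
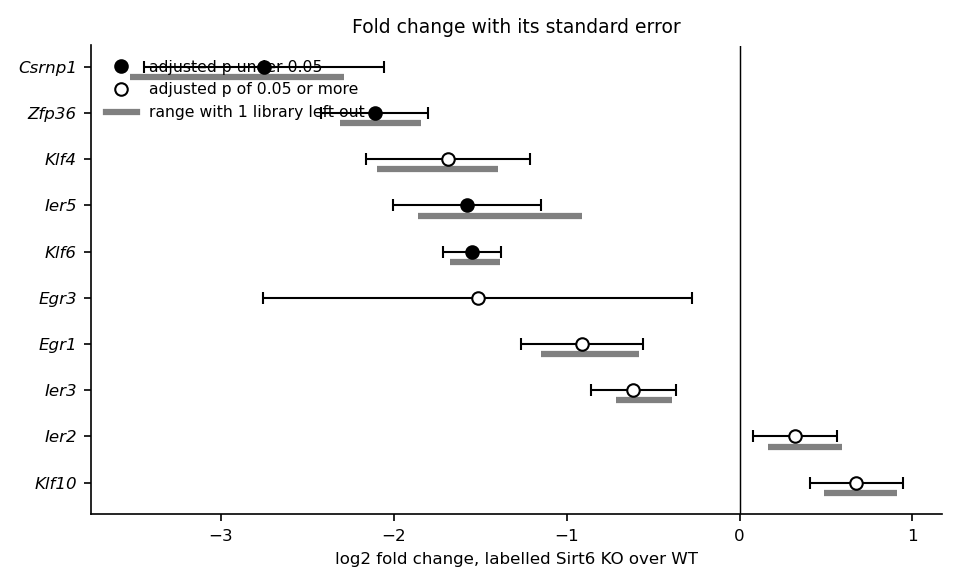
log2 fold change of the 10 genes, KO-labelled libraries over WT (horizontal axis), with the standard error. Filled circles mark an adjusted p under 0.05, and the grey bars the range of the fold change when 1 library is left out (not drawn for *Egr3*, whose counts are too few). The 4 filled genes lie between -2.75 for *Csrnp1* and -1.55 for *Klf6*, and only *Klf10* and *Ier2* lie above 0.

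Levels can be ordered between genes only per length, as TPM. In WT the order of median TPM was *Zfp36* (94.2), *Klf6* (49.9), *Klf4* (36.9), *Klf10* (24.8), *Csrnp1* (17.1), *Ier3* (8.05), *Ier5* (7.34), *Ier2* (5.12), *Egr1* (3.98) and *Egr3* (0.153). Only 2 of the 9 steps between neighbours separated their ranges over the 3 libraries, that from *Klf6* to *Klf4* and that from *Egr1* to *Egr3*. In the KO-labelled libraries, *Klf10* came first at a median of 40 TPM, above *Zfp36* (19.8) and *Klf6* (16.5), and its range did not overlap that of *Zfp36*. *Csrnp1* went from the fifth place to the ninth, at 1.23 TPM, between *Egr1* (2.66) and *Egr3*.

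Ratios of counts within a library do not depend on the scaling between libraries; the pairs below were chosen after their values were seen and are given with no test. The ratio of *Klf6* to *Klf10* was 2.01, 2.96 and 3.74 in WT 1, 2 and 3 and 0.52, 1.02 and 0.395 in KO 1, 2 and 3, so that *Klf6* had more counts than *Klf10* in every WT library, fewer in KO 1 and KO 3, and about as many in KO 2. *Zfp36* over its relative *Zfp36l1* was 2.46, 2.97 and 3.75 in WT and 1.21, 1.46 and 0.587 in the other group. *Ier5* over *Ier2* was 5.95, 2.87 and 4.22 in WT and 1.43, 1.54 and 0.811 in the other group. WT 3 was not the lowest WT library in any of these 3 ratios, whereas in *Csrnp1* over *Csrnp2* it was, at 1.55 against 5.93 and 14.1, close to KO 2 at 1.25.

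**Figure D3:**
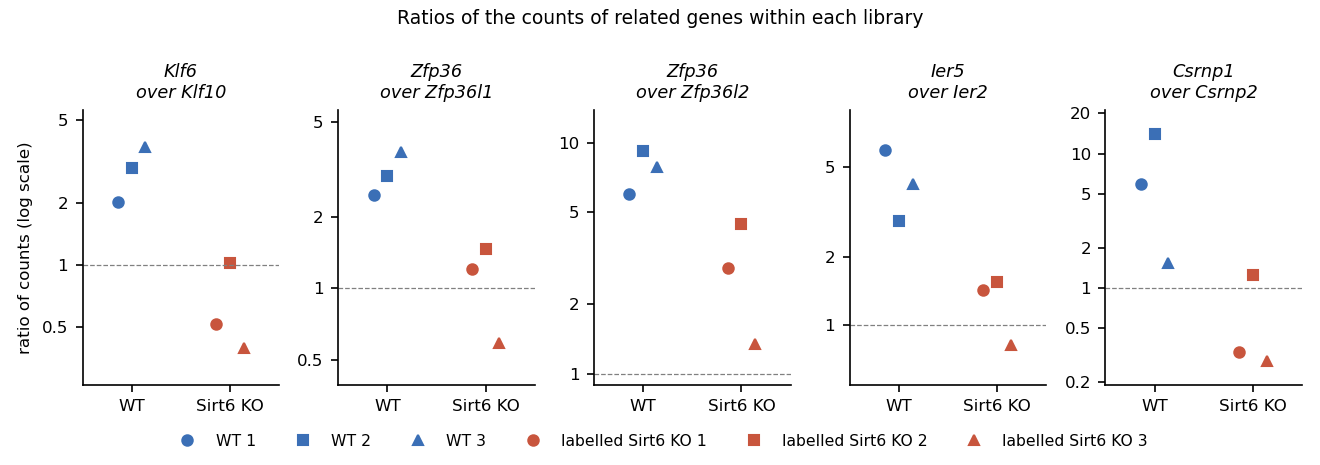
Ratio of the counts of related genes within each library (vertical axis, log scale), 1 symbol per library, with a dashed line at equal counts. All 5 ratios are lower in the KO-labelled libraries, where *Klf6* over *Klf10* lies between 0.395 and 1.02 against 2.01 to 3.74 in WT.

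The rest of each family was read from lists written beside the 10 genes. Of 17 KLF factors, 14 were tested, 11 were lower and 4 fell, *Klf6* among them, with a median log2 fold change of -0.7. Over all genes tested, 51.6% were lower and 8.39% fell. Of the KLF factors, 0 fell without KO 1, 1 each without WT 2 and KO 3, and 2 each without WT 1 and KO 2. Without WT 3 the number was 8, in a fit where 2219 of all genes fell, against 2 of all genes without KO 1. DESeq2 called 7 KLF factors lower and 1 higher. Besides *Klf6*, the 3 KLF factors that fell were *Klf15*, a factor of amino acid and lipid metabolism that glucocorticoids and fasting induce, *Klf12* and *Klf13*. *Klf15* was at 71.2, 133 and 82.7 CPM in WT and 34.9, 50.8 and 38.1 CPM in the KO-labelled libraries (log2 fold change -1.21 ± 0.26 SE, adjusted p = 0.0246), lost without WT 2, KO 1 or KO 3. *Klf12* had a log2 fold change of -1.2 (adjusted p = 0.0419) and *Klf13* one of -0.6 (adjusted p = 0.0332), and of the fits with 1 library left out both passed only in that without WT 3. *Klf2*, the flow-responsive factor of endothelium, resembled *Klf4*, with 27.4 and 30.4 CPM in WT 1 and 2, 8.57 in WT 3 and 9.3 to 11 in the other group (adjusted p = 0.103). *Klf5* was higher where most KLF factors were lower, at 1.26 to 2.02 CPM in WT and 2.29 to 4.24 in the KO-labelled libraries, without passing (log2 fold change 1.04 ± 0.3 SE, adjusted p = 0.053).

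*Klf9*, the most abundant KLF factor by counts, was at 151 to 196 CPM in WT and 119 to 165 CPM in the other group (log2 fold change -0.2, adjusted p = 0.412). *Klf3* (-1.07, adjusted p = 0.0704), *Klf7* (-0.65), *Klf8* (-0.76), *Klf11* (0.33) and *Klf16* (-0.19) did not pass either, and *Klf1*, *Klf14* and *Klf17* were too low to test. In the EGR group, *Egr2* was at 0.18 to 0.573 CPM in WT and 0.28 to 0.454 CPM in the other group, and *Egr4* had no count. The EGR corepressor *Nab1* fell from 15, 14 and 9.72 CPM to 7.26, 8.88 and 7.15 CPM (log2 fold change -0.73 ± 0.19 SE, adjusted p = 0.0431), again in only 1 of 6 fits with a library left out, that without WT 3. *Nab2*, itself induced by EGR1, had a log2 fold change of -0.14 (adjusted p = 0.662).

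*Ier5l*, the close relative of *Ier5*, was at 1.54, 1.21 and 1.19 CPM in WT and 0.598, 0.495 and 0.781 CPM in the other group, with no overlap, and just missed the threshold (log2 fold change -1.07 ± 0.3 SE, adjusted p = 0.0513). *Csrnp2* lay the other way from *Csrnp1*, at 3.47, 1.97 and 3.46 CPM in WT and 5.08, 3.89 and 4.85 CPM in the other group (log2 fold change 0.63, adjusted p = 0.128). Of 13 tested genes of the ZFP36 and CCR4-NOT list, 10 were lower, against 51.6% of all genes tested. Of this list 5 were called lower without WT 3, where 2219 of all genes were, and 0 without KO 1 or KO 3. With all libraries *Zfp36* alone fell, where 8.39% of all genes tested did. Its relatives *Zfp36l1* (log2 fold change -0.67, adjusted p = 0.138) and *Zfp36l2* (-0.64, 0.15) did not pass, and the CCR4-NOT subunits lay between -0.42 and 0.22. DESeq2 called 2 genes of that list lower.

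**Figure D4:**
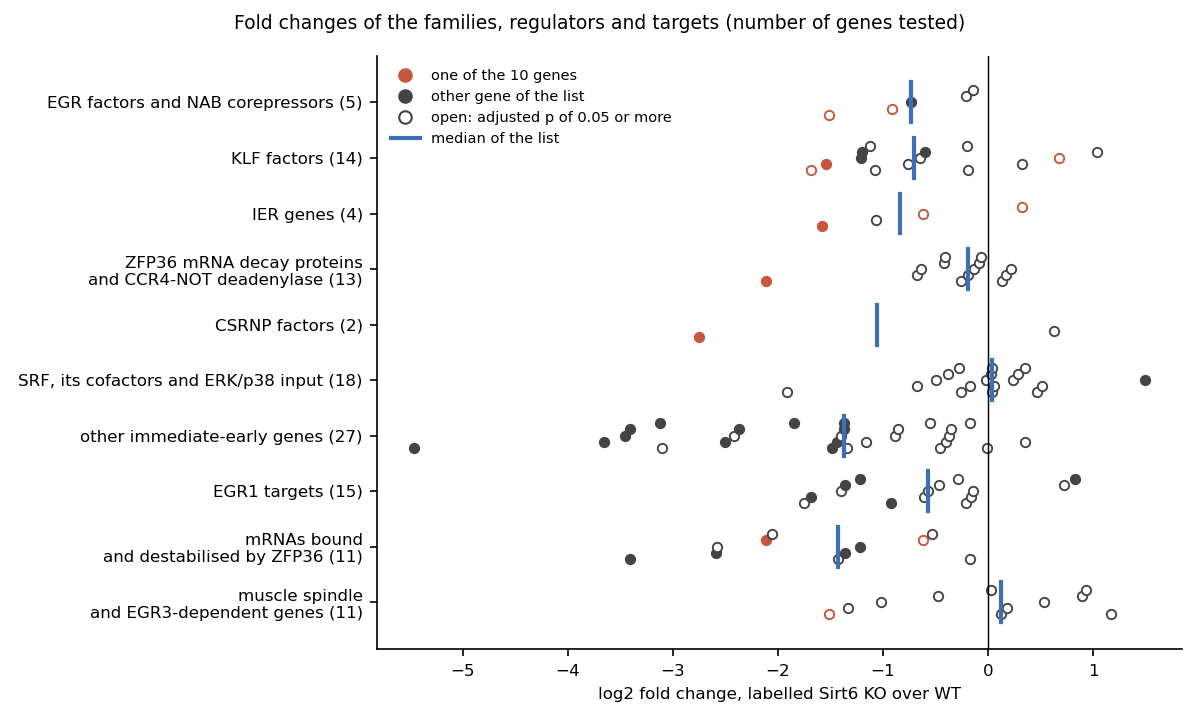
log2 fold change (horizontal axis) of each tested gene of 10 lists, with the number tested in parentheses. Red marks the 10 genes described here, filled symbols an adjusted p under 0.05 and blue bars the median of a list. The list of other immediate-early genes has a median of -1.38, while the list of SRF and its inputs is centred at 0.03.

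Upstream of the 10 genes, 18 genes for SRF, its cofactors and the ERK and p38 pathways were tested, of which 8 were lower, 10 were higher and 1 rose. Over all genes tested, 51.6% were lower and 7.85% rose. Of the 18, DESeq2 called 3 lower and 2 higher. The fit without WT 3 called 2 of them lower and 5 higher with a median log2 fold change of 0.15, and 2363 of all genes higher. CREB is not on this list. *Srf* was at 50.8 to 73.7 CPM in WT and 62.5 to 63 CPM in the KO-labelled libraries. The gene of the list that rose was *Mkl1*, the actin-regulated coactivator of SRF. It went from 8.86, 7.04 and 9.91 CPM to 30.6, 19.1 and 23.4 CPM (log2 fold change 1.5 ± 0.21 SE, adjusted p = 0.0131), a call lost without KO 1 or KO 3.

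Alongside them, 27 other immediate-early genes were tested, of which 26 were lower and 12 fell, with a median log2 fold change of -1.38, against 51.6% of all genes tested lower and 8.39% that fell. The 4 with the smallest adjusted p were the nuclear receptors *Nr4a3* (-5.47 ± 0.65 SE, adjusted p = 0.0116) and *Nr4a1* (-2.5 ± 0.31, 0.0128), the phosphatase subunit *Ppp1r15a* (-1.38 ± 0.2, 0.0132) and the stress factor *Atf3* (-3.12 ± 0.53, 0.0163). The log2 fold change of *Nr4a3* was -6.35 without KO 2. The number called was 0 without KO 1 or KO 3, 5 without WT 1, 4 without WT 2, 9 without KO 2 and 16 without WT 3. Over all genes tested, 2 fell without KO 1, 5 without KO 3 and 2219 without WT 3.

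Downstream, the EGR1 targets and the mRNAs bound by ZFP36 were read from lists of textbook members. Of 15 EGR1 targets tested, 13 were lower, 4 fell and 1 rose, against 51.6%, 8.39% and 7.85% of all genes tested. *Cd44*, a hyaluronan receptor, was at 6.61 to 8.96 CPM in WT and 2.12 to 2.66 CPM in the KO-labelled libraries (log2 fold change -1.68 ± 0.19 SE, adjusted p = 0.011), and *Icam1*, an adhesion molecule of endothelium, at 3.89 to 7.19 and 2.26 to 2.67 CPM (-1.22 ± 0.25, 0.0234). *Trp53* rose, from 8.06 to 12.4 CPM in WT to 16.7 to 20.9 CPM (0.83 ± 0.18, 0.0257). *Cd44* lost its call without KO 1 or KO 3, while *Icam1* and *Trp53* passed, of the fits with 1 library left out, only in that without WT 3. The number of targets that fell was 2 without WT 1, 2 without WT 2, 3 without KO 2, 8 without WT 3 and 0 without KO 1 or KO 3, the fits in which 2 and 5 of all genes tested fell.

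Of 20 mRNAs known to be destabilised by ZFP36, 9 were too low to test, among them *Tnf*, *Il6* and *Il1b*, so the cytokines for which ZFP36 is best known gave no comparison. The 11 tested were all lower and 5 fell, *Zfp36* itself among them, with a median log2 fold change of -1.43, against the same 51.6% lower and 8.39% that fell over all genes tested. The others with the smallest adjusted p were *Fos* (-3.41 ± 0.71 SE, adjusted p = 0.0236), the cell cycle inhibitor *Cdkn1a* (-1.22 ± 0.28, 0.0315) and *Vegfa* (-1.36 ± 0.33, 0.034), which is on the EGR1 list too. The log2 fold change of *Fos* was -2.38 without WT 1. Without KO 1 or KO 3 the count was 0, with 1 library left out otherwise 1 to 6. Of 11 tested genes of the spindle list, which holds *Egr3*, edgeR's quasi-likelihood test called 0, with 0 lower and 1 higher at an unadjusted p under 0.05, and DESeq2 and limma called 0. The replicate block called 1 of them higher, and the fit without WT 3 called 1 lower.

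Other cell types moved with some of these genes. The summed level of 7 smooth muscle and pericyte markers was 447 and 520 CPM in WT 1 and 2, 228 in WT 3 and 213 to 251 in the KO-labelled libraries, with WT 3 beside the other group, as it was for *Klf4* and *Klf2*. *Rgs5* was the largest part of this sum, at 309, 348 and 150 CPM in WT and 134, 138 and 103 CPM in the other group. It alone of these markers fell (adjusted p = 0.0481), and of the fits with 1 library left out only in that without WT 3. Of the 7 markers 5 were lower, while *Pdgfrb* (log2 fold change 0.34, adjusted p = 0.182) and *Notch3* (0.74, 0.0855) were higher with no overlap between the groups. DESeq2 called 1 of the 7 lower and 1 higher, limma 0 lower and 1 higher, and the fit without WT 3 called 5 lower and 1 higher. That of 8 endothelial markers was 282 and 305 CPM in WT 1 and 2, 164 in WT 3 and 206 to 217 in the other group, and of the 8 genes 5 were lower. edgeR's quasi-likelihood test called 0 of them, with 2 lower at an unadjusted p under 0.05, DESeq2 called 1 and limma 0. The fit without WT 3 called 3 of the endothelial markers lower, where 2219 of all genes fell. The part of these cells in the levels of *Klf4* and *Klf2* was not tested.

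Fiber types were uneven as well. The 8 slow fiber genes, which include *Myh2* of type IIA fibers, summed to 7302 and 8166 CPM in WT 1 and 2, 1389 in WT 3 and 1672, 4793 and 2071 CPM in KO 1, 2 and 3. WT 3 and KO 2 thus changed sides in slow genes. For *Csrnp1* these were the libraries that nearly met, and for *Klf4* WT 3 (12.1 CPM) lay below KO 2 (13.3 CPM). *Zfp36* was lowest of WT in WT 3 (46.3 CPM) and highest of its group in KO 2 (18.8 CPM), with the groups apart. *Klf6* was at 90.3 CPM in WT 3, the library lowest in slow genes, and at 37.4 CPM in KO 2, the highest in them of its group. The part of fiber type in the levels of these genes was not tested. Erythroid markers summed to 297, 291 and 46.6 CPM in WT and 110, 181 and 80.2 CPM in the other group. Macrophage markers lay between 38.6 and 76.3 CPM with overlap, and neutrophil markers were at or near 0, with at most 0.61 CPM in sum. Satellite cell markers moved both ways, with *Pax7* and *Myf5* higher and *Sdc4* lower at an adjusted p under 0.05.

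**Figure D5:**
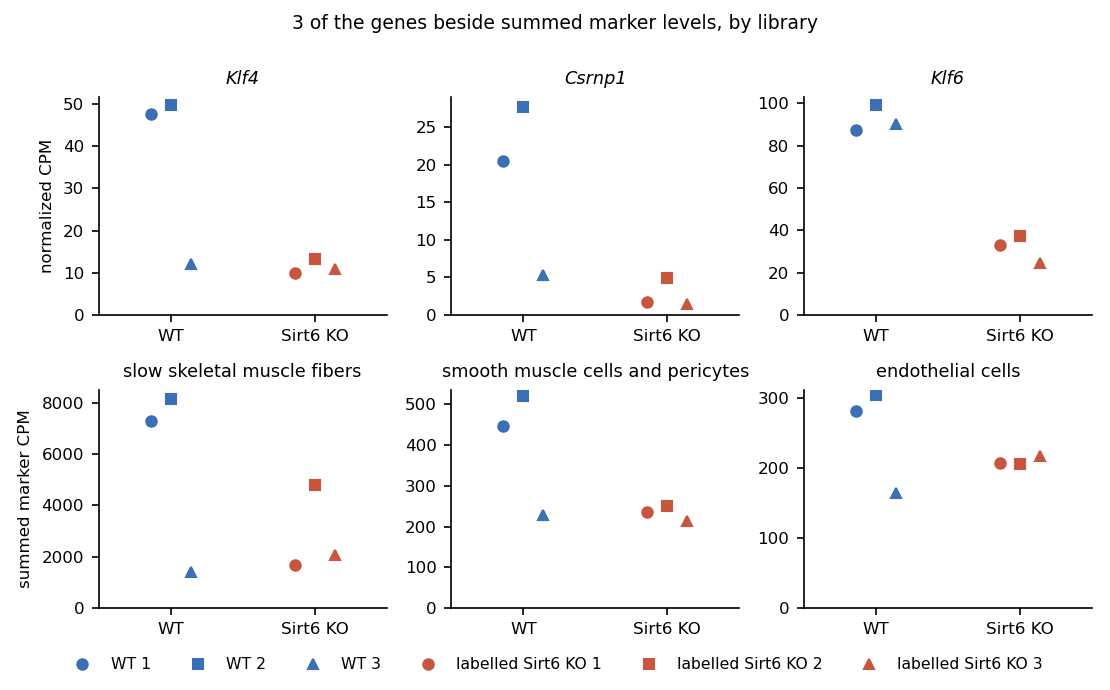
Normalized CPM of *Klf4*, *Csrnp1* and *Klf6* (upper row) and summed CPM of the markers of slow fibers, smooth muscle cells with pericytes and endothelial cells (lower row) by library, on linear axes from 0. WT 3 sits low in *Klf4* (12.1), *Csrnp1* (5.34) and all 3 marker sums, but not in *Klf6* (90.3).

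The ranks of the libraries across the 10 genes are set beside those across all genes tested. WT 3 was the highest WT library for 0 of the 10 genes, against 44.4% of all genes tested, and the lowest for 6, against 37.4%. WT 1 was the highest for 6 and WT 2 for 4, against 26.4% and 29.1% of all genes. In the other group KO 2 was the highest library for 5 genes and KO 3 the lowest for 4, against 36.1% and 28.6% of all genes. For 10 genes these ranks of KO 2 and KO 3 are near the shares over all genes.

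The mean of the standardised log2 levels of the 10 genes, of which 8 were lower and 2 higher in the KO-labelled libraries, was followed most closely by *N4bp2*, *Socs5*, *Slc5a3*, *D6Wsu163e* and *Plod1*, with Pearson r of 0.994, 0.993, 0.992, 0.992 and 0.99 over the 6 libraries, the highest among 11616 genes. These values are a description, since the points share their libraries and group difference. *Slc5a3*, a myo-inositol transporter induced by osmotic stress, was at 16.3, 6.68 and 2.46 CPM in WT and 1.48 to 1.74 CPM in the KO-labelled libraries and fell (log2 fold change -2.38 ± 0.61 SE, adjusted p = 0.0403), in 4 of 14 alternatives and, with 1 library left out, only without WT 3. Without WT 1 its log2 fold change was -1.48. The other 4 did not pass, with log2 fold changes of -0.6 to -0.31. In all 5, WT 1 was the highest library and the 3 KO-labelled libraries lay close together.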

How the data were processed

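RNA-seq of GAS muscle was analysed from 3 WT and 3 *Sirt6* KO mice, 1 library per animal, with groups and replicate numbers taken from the sample labels. The authors deposited 1 table of 24532 genes on mm10 (GRCm38) with a read count, an FPKM value and a TPM value per gene and library. The counts are whole numbers without normalization between libraries, the deposited FPKM is scaled to length and library size, and the deposited TPM to a fixed sum. The submitters' processing notes name HISAT2 2.1.0 and StringTie 2.1.3b, while the paper's reporting summary names STAR.

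Counts were tested in R 4.3.3 with edgeR 4.0.16 (filterByExpr, TMM, quasi-likelihood fit, group as the only factor, Benjamini-Hochberg at 0.05), after a test on simulated data. SDs are over 3 libraries. FPKM served for an alternative and TPM for the order of levels. A count of 0 allows up to 3 counts. The common biological coefficient of variation was 24.1%. With 3 libraries against 3, no exact permutation p can be below 0.1, so none is given.

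Named genes are the 10 members, *Sirt6*, the 4 genes with the smallest adjusted p under 0.05 in each list, relatives of the members, and the 5 genes most alike in level; *Srf*, marker genes and any others were named after their values were seen. For 1 gene of these lists no value is given. The members and lists were chosen with earlier results of these data known. Alternatives were DESeq2 1.42.0, its size factors, 2 other count filters, limma 3.58.1 on log2 FPKM after quantile normalization (with 1 or 0.1 added), a replicate block, removal of a GC trend, and each library left out. Gene positions and promoters are from RefSeq (GRCm38.p6), 3′ UTRs from GENCODE M21.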

Additional observations from a re-analysis of the deposited data

How the results depend on the processing

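None of the 10 genes changed direction in an alternative in which it was tested, 14 for each gene except *Egr3*, which was tested in 11. Among all genes, the number called lower moved from 1158 to 487 and the number called higher from 1084 to 471 when the trend of the counts over GC content was removed (Spearman's rho of fold change with GC content 0.334, across genes, which are not independent), and DESeq2 called 1737 lower and 1671 higher. Of the 10 genes, 3 to 5 fell under DESeq2, its size factors, the other count filters, limma, the replicate block and GC removal. With 1 library left out, 0 to 5 of them fell, the number of all genes called lower lay between 2 (without KO 1) and 2219 (without WT 3), the number called higher between 6 and 2363, and the log2 fold change of *Sirt6* between 1.37 and 1.55. The cause was not tested.

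The replicate numbers were not shown to pair the libraries. Deviations from the group means correlated at -0.106, 0.26 and 0.161 for numbers 1, 2 and 3, and at -0.34 to 0.21 between unlike numbers. With the replicate block 4 of the 10 genes fell, with 1018 of all genes lower and 904 higher, and the log2 fold change of *Sirt6* was 1.48. The block lowered the SE of *Zfp36* (0.31 to 0.13) and *Csrnp1* (0.69 to 0.33) and raised that of *Egr1* (0.35 to 0.41). Depth limits *Egr3*, which had at most 15 counts. Of the 6 fits with 1 library left out, *Ier5* passed in 1, *Csrnp1* in 2, *Zfp36* in 4 and *Klf6* in 5. *Ier5* also missed the threshold with no count filter (adjusted p = 0.059), under limma (0.0671 and 0.0547) and with the GC trend removed (0.0556).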
